A study of Mus musculus with 42 samples.

Results

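The tract patterning factors described here are 9 genes of the Eya, sine oculis homeobox, Pax, Emx and LIM homeodomain families: Eya1, Eya2, Eya4, Six2, Six4, Pax2, Pax8, Emx2 and Lhx1. They were taken as the genes with a probe set carrying that symbol alone, out of 19938 genes measured, and each of the 9 was read by 1 probe set. Total RNA of adult mouse reproductive tract was read on 42 Affymetrix arrays that cover whole transcripts, in 14 groups of 3 arrays. The mice had a CD1/129 background and were 3 to 7 months old, and females were taken in diestrus. The AKO mice were Hoxa9,10,11-/-, the AKDH mice were Hoxa9,10,11-/-d9,10,11+/-, the DKO mice were Hoxd9,10,11-/- and the AHDK mice were Hoxa9,10,11+/-d9,10,11-/-, each set against WT. Uterus and vas deferens were collected from all 5 genotypes, and oviduct and caudal epididymis from AKO and WT. No Cre driver is named for these alleles, and AKO and AKDH are called Hoxa-null here because both lack Hoxa9, Hoxa10 and Hoxa11. Per the titles the replicates were biological, and the number of animals behind an array is not stated in them.

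Eya proteins are transcriptional coactivators that also have phosphatase activity, and sine oculis homeodomain proteins such as Six2 and Six4 recruit them to DNA. In the embryo these factors act downstream of or beside Pax2 and Pax8 in the intermediate mesoderm, from which the Wolffian duct (later epididymis and vas deferens) and the Müllerian duct (later oviduct and uterus) arise. Pax2, Lhx1 and Emx2 are each needed for the genital ducts to form or persist, and in the developing mouse kidney posterior Hox proteins act with Eya1 and Pax2 to switch on Six2.

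All values are log2 values relative to the middle array of the same sex, because every probe set of the deposited table had a median of 0 over the 21 female and over the 21 male arrays. A value of 0 is therefore the middle of the sex and not an absence of RNA, and levels of different genes or of the 2 sexes cannot be set against each other. The log base was not stated, so that folds hold if it is 2. A gene was called when its limma p-value, adjusted by Benjamini-Hochberg over all 19938 genes, was below 0.05.

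Promoter windows of 3 members are shown because Eya4 and Pax8 fell in Hoxa-null vas deferens and Emx2 separated epididymis from vas deferens. The most upstream window of each gene is printed. The windows come from RefSeq on GRCm38.p6 and run from 250 bases before to 50 bases after a gene's start. Capitals mark TTTAT and TTTAC, letters that posterior Hox proteins of the Abd-B class prefer, searched on both strands, so that ATAAA and GTAAA count too.
Eya4, chr10:23349894-23350193, minus strand: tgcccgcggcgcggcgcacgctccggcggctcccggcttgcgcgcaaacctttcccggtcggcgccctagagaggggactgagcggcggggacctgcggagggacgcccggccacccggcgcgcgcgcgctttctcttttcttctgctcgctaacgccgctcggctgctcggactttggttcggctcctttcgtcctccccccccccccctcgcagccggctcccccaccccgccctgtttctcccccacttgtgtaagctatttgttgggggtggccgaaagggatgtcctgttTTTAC
Pax8, chr2:24475550-24475849, minus strand: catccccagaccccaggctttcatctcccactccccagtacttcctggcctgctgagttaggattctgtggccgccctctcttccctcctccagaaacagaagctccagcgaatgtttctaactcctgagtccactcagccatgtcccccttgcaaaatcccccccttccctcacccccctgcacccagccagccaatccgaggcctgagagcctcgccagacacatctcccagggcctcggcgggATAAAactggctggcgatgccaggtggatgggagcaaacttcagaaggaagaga
Emx2, chr19:59458440-59458739, plus strand: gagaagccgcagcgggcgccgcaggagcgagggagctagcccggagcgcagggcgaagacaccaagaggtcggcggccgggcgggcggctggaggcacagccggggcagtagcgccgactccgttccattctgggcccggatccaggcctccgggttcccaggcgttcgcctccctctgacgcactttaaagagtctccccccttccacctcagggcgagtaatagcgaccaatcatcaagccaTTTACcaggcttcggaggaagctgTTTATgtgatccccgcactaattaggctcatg
The Eya4 window held 1 TTTAC at its very end, and 69.3% of its bases were G or C. The Pax8 window held 1 TTTAT, written as ATAAA on this strand. The Emx2 window held 1 TTTAC and 1 TTTAT, and also 3 matches to TAAT or its reverse ATTA, the wider homeodomain core. Of all 32851 RefSeq windows of this length, 40% held TTTAT, 31.5% held TTTAC and 58% held TAAT. The median G or C content of those windows was 52.7%. Windows were found for 7 of the 9 members, 11 windows in all, and the members without one were Eya1 and Eya2. These matches describe letters in a window and are not binding sites.

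The labels were checked on the targeted genes, on tissue markers and on 2 sex-specific genes. Hoxa11 values in uterus were -1.59, 0.67 and -0.59 in AKO, -1.57, -0.61 and 0 in AKDH, and 2.75, 1.23 and 2.19 in WT. In vas deferens Hoxd9 lay between -0.86 and -0.56 in DKO and between -0.26 and -0.13 in WT, while in uterus Hoxd9 did not separate DKO from WT (-0.12, limma adjusted p = 0.902). Other targeted genes went against the labels. In vas deferens Hoxa9 was 0.08 to 0.34 in AKO and -0.32 to 0 in WT. The Hoxd10 mean was 0.38 in DKO and 0.20 in WT uterus, and 0.29 in DKO and 0.12 in WT vas deferens. The labels do not say which bases the alleles lack, so these probe sets may lie outside the lesion. The mean of 10 motile cilia markers was 3.41 to 3.97 in oviduct arrays and -0.19 to 0.06 in uterus arrays. Over all arrays the median was between -0.05 and 0.04. The array labelled WT oviduct replicate 2 went against its label for sex. Xist, the RNA that coats the inactive X of females, was -5.92 there and -0.42 to 0.72 on the other 20 female arrays, and the Y-linked gene Eif2s3y was 2.09 there and -0.04 to 0.06 on the others. Its motile cilia mean, 3.41, was the lowest among oviduct arrays and far above uterus, and its results are given with and without it. Among the arrays, 3 were taken as standing apart from their group by tissue markers. Other groups that were kept also spread widely, such as uterus AKDH, with smooth muscle means from -0.75 to 0.73. The 3 were the array labelled WT oviduct replicate 2 (mean of ovary markers 2.16), AKDH vas deferens replicate 3 (mean of motile cilia markers 0.92) and AKO epididymis replicate 1 (mean of proximal epididymis markers 4.50). Given the male Xist and Eif2s3y values of the first, which tissue gave its ovary marker mean was not tested. Leaving out these 3 ended the calls of Pax2 in vas AKDH against WT (0.42, limma adjusted p = 0.0542) and of Eya1 (-1.48, limma adjusted p = 0.0549) and Eya4 (-0.72, limma adjusted p = 0.0599) in vas AKDH against AHDK. It also brought in Eya2 for WT oviduct against WT uterus (0.86, limma adjusted p = 0.0436), as did leaving out the array labelled WT oviduct replicate 2 alone.

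Eya1 varied most among the 9 members in both tracts. The SD of Eya1 over the 21 male arrays was above that of 99.3% of all genes, and over the 21 female arrays above that of 90.3%. Eya4 ranked at 91.2% among male arrays and at 17.2% among female arrays. Six2, which keeps kidney progenitors undifferentiated, moved least, with values between -0.25 and 0.37 over male arrays and between -0.20 and 0.15 over female arrays, and Lhx1, a LIM homeodomain gene of the early ducts, ran from -0.28 to 0.33 over male arrays and from -0.24 to 0.25 over female arrays.

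In the uterus, Eya1 was lower in 3 of the 4 mutants by over 1 log2 unit. Its values were 0.02, 0.01 and -0.15 in AKO, -0.33, 0.00 and -0.15 in AKDH, 0.86, 0.47 and 0.68 in DKO, and 0.06, 0.08 and -0.09 in AHDK, against 2.01, 0.99 and 0.97 in WT. No array of any mutant reached the lowest WT array. The DKO arrays lay between the WT arrays and those of the other mutants, without overlap on either side.

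Eya1 fell in uterus AKDH (-1.48, SE 0.22, limma adjusted p = 0.00512), to 0.358 of its WT level. It also fell in uterus AHDK (-1.30, SE 0.22, limma adjusted p = 0.013), to 0.405 of the WT level. In AKO the difference was of the same size and missed the threshold (-1.36, SE 0.22, limma adjusted p = 0.0531), and in DKO it was -0.65 (SE 0.22, limma adjusted p = 0.185). The 4 comparisons share the same 3 WT arrays, 1 of which was about 1 log2 unit above the other two. Without that WT array (replicate 1) Eya1 was called in AKO as well (-1.02, limma adjusted p = 0.0133), and the AHDK call ended without AHDK replicate 1 (-1.33, limma adjusted p = 0.065) or replicate 3 (-1.25, limma adjusted p = 0.0559). Whole tissue was measured, so fewer cells with Eya1 RNA and less Eya1 RNA per cell cannot be told apart.

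Of the 9 members, Eya1 alone was called in AKDH and in AHDK, where 6.58% and 3.53% of all genes were called. The arrays of mutant and WT did not overlap for 4 of 9 members in AKO (12.8% of all genes), 2 in AKDH (26.7%), 3 in DKO (20.9%) and 4 in AHDK (29.6%). In AKO 0 members were called by limma, where 0.0903% of all genes were called. An unadjusted p below 0.05 was reached there by 3 of 9 members and 1865 of 19938 genes. In DKO 0 members were called by limma, where 0.973% of all genes were called. That unadjusted p was reached there by 2 of 9 members and 3048 of 19938 genes. An F test over the 4 mutants called Eya1 (limma adjusted p = 0.0154) and no other member, against 4.45% of all genes.

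Six4, a homeodomain partner of Eya proteins, was higher on average in every uterine mutant without passing the test. Its values were 0.06, 0.04 and -0.07 in AKO, 0.04, 0.28 and -0.47 in AKDH, -0.18, -0.19 and -0.50 in DKO, and -0.14, 0.00 and 0.18 in AHDK, against -0.50, -0.44 and -0.90 in WT. The AKO and AHDK arrays did not overlap WT. The differences from WT were 0.62 in AKO (limma adjusted p = 0.221), 0.56 in AKDH (0.0815), 0.33 in DKO (0.417) and 0.63 in AHDK (0.074). Leaving out AKDH replicate 3, the lowest of its group, brought Six4 past the threshold in AKDH (0.77, limma adjusted p = 0.0281).

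Eya2, a paralog of Eya1, had 0.42, 0.33 and 0.16 in AKO uterus and -0.71, -0.12 and -0.37 in WT uterus, which did not overlap, but the difference did not pass (0.70, SE 0.28, limma adjusted p = 0.428). In AHDK uterus its values were -0.75, -0.70 and -0.53, the lowest of the uterine groups. The paired-domain gene Pax2 spread widely within groups, with 0.80, -0.12 and -0.12 in AKDH and -0.13, 0.04 and 0.00 in WT. Pax8, its close relative, had -0.44, -0.31 and -0.93 in DKO and 0.27, -0.44 and -0.47 in WT. None of the differences of Eya4, Six2, Pax2, Pax8, Emx2 or Lhx1 from WT passed in the uterus, and for Eya4, Six2 and Lhx1 they lay between -0.16 and 0.18.

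**Figure D1:**
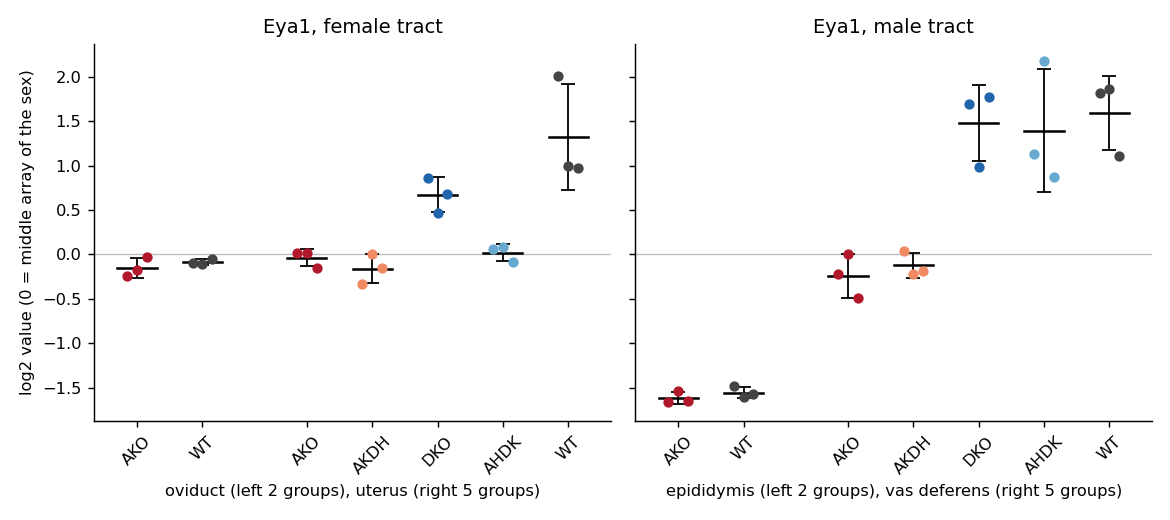
Eya1 log2 value of every array (vertical axis, 0 is the middle array of the sex) by group, female tract on the left and male tract on the right. Points are arrays, wide bars are means and whiskers are SDs (n = 3 each). Uterine AKO, AKDH and AHDK arrays lie near 0, below all WT uterus arrays, and vas deferens AKO and AKDH arrays lie below all DKO, AHDK and WT vas arrays.

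A set of small RNAs was also highest in WT uterus. The mean of 61 small nuclear, nucleolar and Y RNA genes was 0.47, 0.24 and 0.00 in AKO, -0.20, -0.45 and -0.37 in AKDH, -0.12, 0.15 and -0.02 in DKO and -0.25, 0.21 and -0.02 in AHDK, against 0.97, 0.54 and 0.65 in WT. With that mean as a covariate the Eya1 difference was -0.91 in AKDH (SE 0.51, limma adjusted p = 0.808) and -0.90 in AHDK (SE 0.39, limma adjusted p = 0.999). Both SEs were larger than without the covariate. None of the 10 smooth muscle markers was called in uterine AKDH or AHDK, and with their mean as a covariate Eya1 stayed at -1.48 in AKDH (limma adjusted p = 0.00527) and -1.38 in AHDK (limma adjusted p = 0.0155). In AHDK 8 of 11 macrophage and dendritic cell markers were called higher, with a mean of 0.65 to 1.05 in AHDK and -0.33 to -0.15 in WT. The mean of 7 urothelium markers was 0.30 to 0.40 in AKO (1 called higher), 0.21 to 1.33 in AKDH (2 called higher), -0.62 to -0.27 in DKO and -0.10 to 0.10 in AHDK, against -0.94 to -0.31 in WT. The part of these cells in the Eya1 difference was not tested.

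In the vas deferens the Hoxa-null mutants stood apart from the other mutants and from WT. Eya1 had -0.22, 0.00 and -0.50 in AKO, 0.04, -0.22 and -0.19 in AKDH, 1.69, 0.99 and 1.77 in DKO, and 1.13, 2.18 and 0.88 in AHDK, against 1.81, 1.86 and 1.11 in WT. Every AKO and AKDH array was below every DKO, AHDK and WT array, while DKO and AHDK overlapped WT. Eya1 fell in AKO (-1.83, SE 0.32, limma adjusted p = 0.00421), to 0.281 of WT, and in AKDH (-1.71, SE 0.32, limma adjusted p = 0.0028), to 0.305 of WT. The differences were -0.11 in DKO (95% interval -0.81 to 0.59) and -0.20 in AHDK (95% interval -0.90 to 0.50), and neither passed.

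Eya4, whose product is another Eya coactivator, followed Eya1 in this tissue. Its values were -0.43, -0.25 and -0.22 in AKO, -0.35, -0.18 and -0.35 in AKDH, 1.16, 0.85 and 1.06 in DKO, and 0.29, 0.89 and 0.18 in AHDK, against 0.64, 0.39 and 0.33 in WT. It was low in every Hoxa-null array and highest in DKO, whose arrays did not overlap WT. Eya4 fell in AKO (-0.75, SE 0.16, limma adjusted p = 0.0118) and AKDH (-0.75, SE 0.16, limma adjusted p = 0.006), and its DKO difference of 0.57 did not pass (limma adjusted p = 0.0575). Without AKO replicate 1 the AKO call ended (-0.69, limma adjusted p = 0.053).

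Pax8 made the third of the members that were low in both Hoxa-null groups. It had -0.45, -0.19 and -0.42 in AKO, -0.23, -0.30 and -0.22 in AKDH, 0.44, 0.58 and 0.39 in DKO, and 0.38, 0.18 and 0.26 in AHDK, against 0.00, 0.13 and 0.42 in WT. All 6 Hoxa-null arrays were below all 9 other vas arrays. Pax8 fell in AKO (-0.53, SE 0.10, limma adjusted p = 0.00701) and AKDH (-0.43, SE 0.10, limma adjusted p = 0.0105). Its differences were 0.29 in DKO (limma adjusted p = 0.129) and 0.09 in AHDK (0.752), which did not pass. Without WT replicate 3, the highest WT array, Pax8 was called in DKO (0.41, limma adjusted p = 0.0241).

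Eya2 and Pax2 ran in the opposite direction. Eya2 had 0.22, 0.51 and 0.34 in AKO and 0.59 in each AKDH array, against -0.10, -0.05 and -0.08 in WT. It rose in AKDH (0.67, SE 0.12, limma adjusted p = 0.00236) and in AKO (0.44, SE 0.12, limma adjusted p = 0.0435). The AKO call of Eya2 ended when any 1 of the 6 AKO and WT arrays was left out, with limma adjusted p-values from 0.0541 (without AKO replicate 1) to 0.148 (without AKO replicate 2).

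Pax2 had 0.15, 0.14 and -0.05 in AKO and 0.06, 0.17 and 0.12 in AKDH, against -0.48, -0.42 and -0.03 in WT. It rose in AKDH (0.42, SE 0.12, limma adjusted p = 0.0279) and its AKO difference of 0.39 did not pass (limma adjusted p = 0.0718). With the mean of epithelium markers as a covariate the AKDH difference was 0.15 (SE 0.08, limma adjusted p = 0.235). That epithelium mean was 0.05 to 0.18 in AKDH and -0.35 to 0.05 in WT. The AKDH call was lost without WT replicate 1 (0.34, limma adjusted p = 0.101), WT replicate 2 (0.37, 0.101), AKDH replicate 2 (0.40, 0.0761) or AKDH replicate 3 (0.42, 0.0542). Without WT replicate 3, the WT array near 0, Pax2 was called in AKO (0.53, limma adjusted p = 0.0134) and in DKO (0.44, limma adjusted p = 0.0375). Six2, Six4, Emx2 and Lhx1 did not pass in any vas mutant in the main fit, with differences between -0.21 and 0.12. In other settings Emx2 was called lower in AKDH, with the epithelium mean (-0.43, limma adjusted p = 0.0178) or the smooth muscle mean (-0.57, 0.034) as a covariate. Array weights brought calls of Six4 (0.42, limma adjusted p = 0.0291) and Lhx1 (-0.20, 0.0263) in AKDH.

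In all, 4 of 9 members were called in vas AKO, where 9.35% of all genes were called, and 5 of 9 in vas AKDH, where 24.3% were called. In vas DKO 0 members were called by limma, where 5.87% of all genes were called. Below an unadjusted p of 0.05 were 4 of 9 members and 4118 of 19938 genes. In vas AHDK 0 members were called by limma, where 4.15% of all genes were called. No member was below an unadjusted p of 0.05 there, and 3520 of 19938 genes were. These 4 comparisons share the 3 WT vas arrays. Mutant and WT arrays did not overlap for 4 of 9 members in AKO (33.1% of all genes), 5 in AKDH (41.5%), 1 in DKO (30%) and 1 in AHDK (21.5%). The median difference of the 9 members was -0.01 in AKO and -0.16 in AKDH, beside -0.02 and -0.05 over all genes. The F test over the 4 mutants called Eya4 (limma adjusted p = 0.000528), Pax8 (0.000646), Eya1 (0.00192) and Eya2 (0.0147), against 24.1% of all genes.

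**Figure D2:**
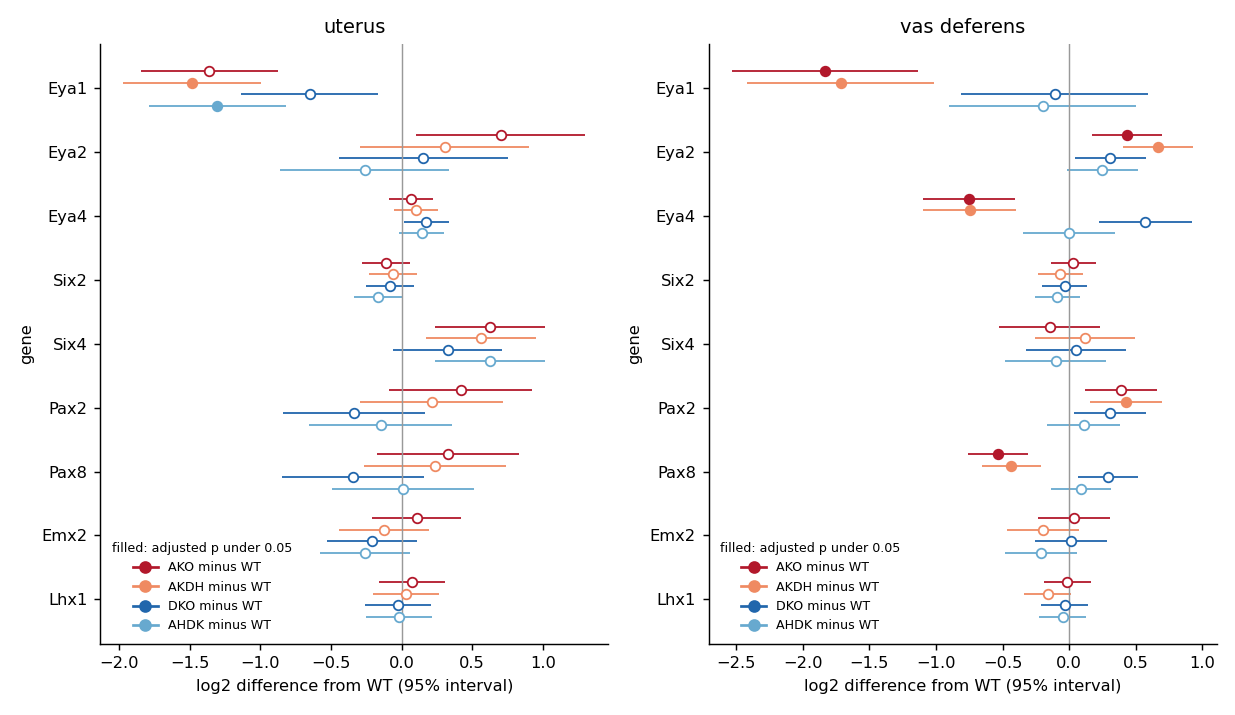
Log2 difference of each mutant from WT (horizontal axis) with its 95% interval for the 9 members, uterus on the left and vas deferens on the right. Filled points passed a limma adjusted p of 0.05. In the vas deferens Eya1, Eya4 and Pax8 of AKO and AKDH are filled and lie below 0, and those of DKO and AHDK are not filled, while in uterus Eya1 lies below 0 in all 4 mutants.

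Comparing mutants with each other leaves WT out. Set against AKO, DKO vas deferens had higher Eya1 (1.72, SE 0.32, limma adjusted p = 0.00368), Eya4 (1.32, SE 0.16, limma adjusted p = 0.000356) and Pax8 (0.82, SE 0.10, limma adjusted p = 0.000437), 3 of 9 members where 17.8% of all genes were called. The Eya4 fold was 2.50 and the Pax8 fold 1.77. The same 3 genes were lower in AKDH than in AHDK: Eya1 by -1.52 (limma adjusted p = 0.022), Eya4 by -0.74 (0.0231) and Pax8 by -0.52 (0.0157), where 4.05% of all genes were called.

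The 3 calls of DKO against AKO held with any 1 of its arrays left out, and those of AKDH against AHDK did not. In AKDH against AHDK the Eya1 call ended without AKDH replicate 2 (-1.47, limma adjusted p = 0.0639), AKDH replicate 3 (-1.48, 0.0549) or AHDK replicate 2 (-1.12, 0.0568). Its Eya4 call ended without AKDH replicate 1 (-0.71, limma adjusted p = 0.0694) or replicate 3 (-0.72, 0.0599). Its Pax8 call ended without AKDH replicate 2 (-0.50, limma adjusted p = 0.0514) or AHDK replicate 1 (-0.47, 0.0526).

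Loss of a further Hox copy gave no call among the members of vas deferens. In vas AKDH against AKO 1 Hoxd copy of each gene was lost as well. There 0 members were called by limma, beside 1.29% of all genes. No member had an unadjusted p below 0.05, and 2824 of 19938 genes did. In vas AHDK against DKO 0 members were called by limma, beside 0.366% of all genes. An unadjusted p below 0.05 was reached by 1 member and by 2606 of 19938 genes. That member was Eya4 (-0.57, limma adjusted p = 0.143), which was called without AHDK replicate 2 (-0.79, limma adjusted p = 0.0186).

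In uterus, DKO against AKO gave 0 calls among members by limma (0.186% of all genes called). Below an unadjusted p of 0.05 were 3 members and 2714 of 19938 genes. Eya1 there was 0.71 higher in DKO (SE 0.22, limma adjusted p = 0.192), with no overlap of arrays. AHDK against DKO gave 0 members by limma (0.0251% of all genes called). An unadjusted p below 0.05 was reached by 1 member, Eya1 at -0.65 (limma adjusted p = 0.52), and by 1489 of 19938 genes. AKDH against AKO (0% of all genes called) and AKDH against AHDK (1.72%) gave 0 members by limma. In each 0 members were below an unadjusted p of 0.05, beside 2063 and 3110 of 19938 genes.

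**Figure D3:**
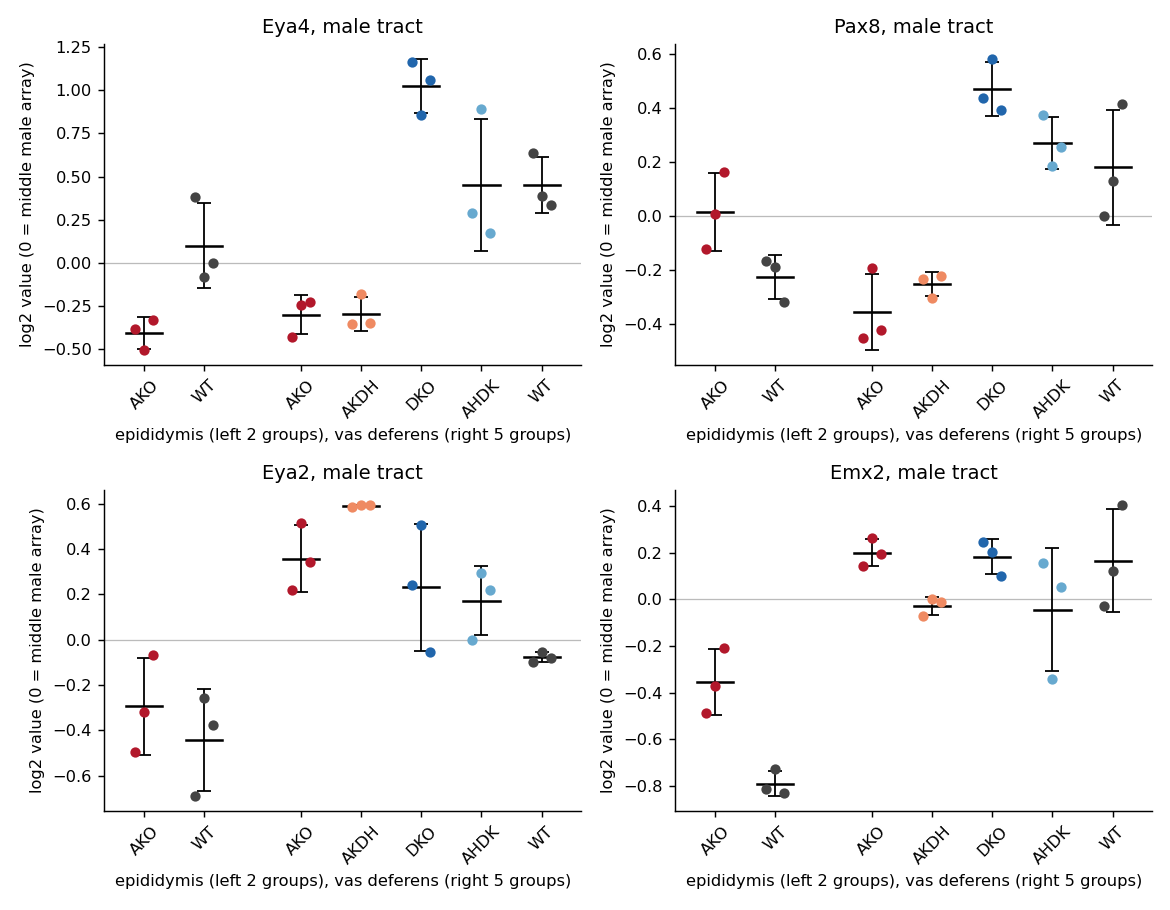
Log2 value of every male array (vertical axis, 0 is the middle male array) for Eya4, Pax8, Eya2 and Emx2 by group. Points are arrays, wide bars are means and whiskers are SDs (n = 3 each). Vas AKO and AKDH arrays are lowest for Eya4 and Pax8 among vas groups, the AKDH arrays are highest for Eya2, and the 2 epididymis groups have the lowest means for Emx2.

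The vas deferens also changed in its tissue markers. The mean of 10 smooth muscle markers was 0.01, 0.09 and -0.35 in AKO, -0.06, -0.38 and -0.45 in AKDH, 0.81, 0.53 and 0.73 in DKO and 0.25, 0.83 and 0.00 in AHDK, against 0.76, 0.69 and 0.28 in WT. Of the 10 markers, 2 were called lower in AKO and 8 in AKDH, and none in DKO or AHDK. Within AKO and within AHDK the arrays had the same order in Eya1 and in this mean. In DKO and WT the lowest array was the same in both and the highest was not. In AKDH the highest array was the same and the lowest was not. The part of smooth muscle in the Eya1 difference was not tested beyond the covariate fit that follows.

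With the smooth muscle mean as a covariate, Eya1 was still lower in AKO (-0.87, SE 0.17, limma adjusted p = 0.0185) but not called in AKDH (-0.43, SE 0.20, limma adjusted p = 0.205). Pax8 remained lower in both, at -0.66 in AKO (limma adjusted p = 0.0208) and -0.60 in AKDH (limma adjusted p = 0.0385). Eya4 was no longer called in AKO (-0.40, limma adjusted p = 0.223) or AKDH (-0.28, limma adjusted p = 0.398), and neither were Eya2 (0.45, limma adjusted p = 0.179, and 0.69, limma adjusted p = 0.0547) and Pax2 in AKDH (0.08, limma adjusted p = 0.798). In DKO against AKO, Eya4 (0.91, limma adjusted p = 0.017) and Pax8 (0.97, limma adjusted p = 0.00593) stayed called and Eya1 did not (0.59, limma adjusted p = 0.0882).

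Fat markers rose in 3 of the 4 vas mutants. Of 9 adipocyte markers, 8 were called higher in AKO, 9 in AKDH, none in DKO and 9 in AHDK. Their mean was 0.36 to 1.50 in AKO, 1.27 to 1.51 in AKDH, -0.66 to -0.26 in DKO and 1.09 to 1.65 in AHDK, against -1.30 to 0.04 in WT. The part of these cells in the differences of the members was not tested beyond the covariates given here. With the means of adipocyte and skeletal muscle markers both as covariates no member was called in AKO or AKDH. Eya1 was -1.65 in AKO (SE 0.59, limma adjusted p = 0.294) and -1.60 in AKDH (SE 0.75, 0.405). Eya4 was -0.79 (SE 0.30, 0.325) and -0.75 (SE 0.38, 0.451), and Pax8 -0.64 (SE 0.19, 0.189) and -0.58 (SE 0.24, 0.349). Each of these SEs was larger than without covariates, so a lost call does not show a smaller difference. The skeletal muscle mean was 1.15 to 1.93 in AKO, -0.47 to 2.43 in AKDH and 0.24 to 1.60 in WT.

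Sperm markers also moved in the male tract. Their mean over 8 markers was -1.14 to -0.91 in vas AKO (2 called lower), -1.33 to 0.62 in AKDH (2 called lower), -0.50 to 0.93 in DKO and 0.05 to 1.34 in AHDK, against 0.10 to 0.77 in WT. In epididymis it was -1.01 to -0.61 in AKO (4 called lower), against 2.04 to 3.31 in WT. Its part in the differences of Eya4, Pax8 and Emx2 was not tested.

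**Figure D4:**
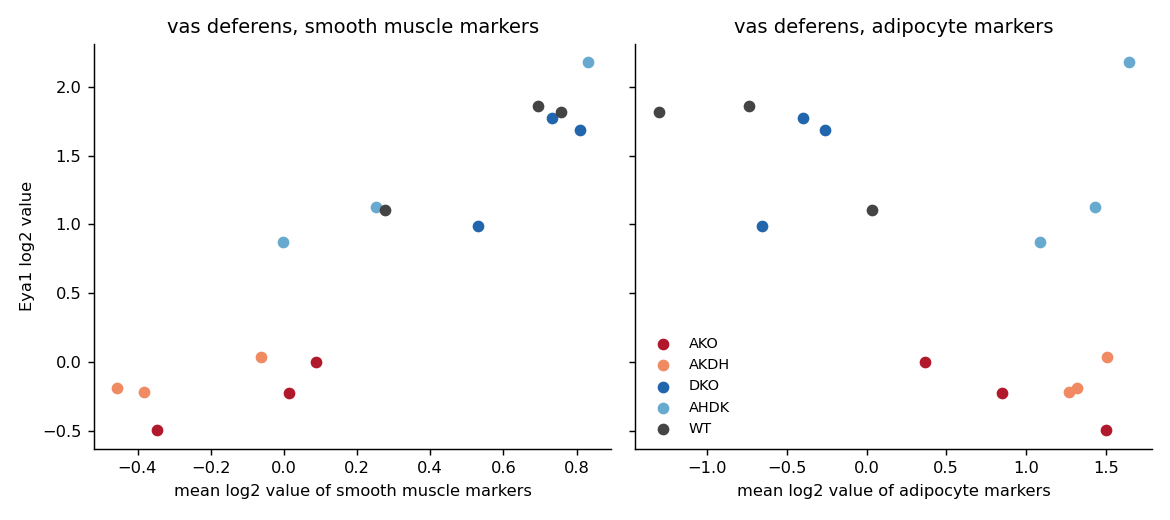
Eya1 log2 value (vertical axis) of the 15 vas deferens arrays against the mean log2 value of smooth muscle markers (left) and adipocyte markers (right). Each point is 1 array, coloured by genotype. AHDK arrays have high adipocyte and high Eya1 values, and AKO and AKDH arrays have low smooth muscle and low Eya1 values.

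The other tissues of each tract showed how far these factors mark a segment. Eya1 in oviduct was -0.25, -0.18 and -0.03 in AKO and -0.09, -0.11 and -0.05 in WT. WT oviduct thus lay at the level of AKO, AKDH and AHDK uterus, the last of which keeps a Hoxa copy. WT oviduct had lower Eya1 than WT uterus (-1.41, SE 0.20, limma adjusted p = 5.89e-05), 0.377 of the uterine level. Without the array labelled WT oviduct replicate 2 it was -1.39 (limma adjusted p = 0.000347). In AKO the difference between oviduct and uterus was -0.11 (95% interval -0.53 to 0.30, limma adjusted p = 0.739). The AKO effect on Eya1 was 1.29 higher in oviduct than in uterus (95% interval 0.70 to 1.88) and did not pass the test over all genes (limma adjusted p = 0.397), and without that array it was 1.28 (limma adjusted p = 0.487).

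Pax8 and Six4 were oviduct-high members. Pax8 had 0.76, 0.31 and 1.01 in WT oviduct and 0.27, -0.44 and -0.47 in WT uterus, a difference of 0.91 (SE 0.23, limma adjusted p = 0.00811). Six4 had 0.30, -0.17 and 0.55 in WT oviduct and -0.50, -0.44 and -0.90 in WT uterus, a difference of 0.84 (SE 0.19, limma adjusted p = 0.00395). Neither gene overlapped between the WT tissues. Without the array labelled WT oviduct replicate 2 the differences were 1.10 for Pax8 (limma adjusted p = 0.00358) and 1.04 for Six4 (limma adjusted p = 0.000771). Without WT oviduct replicate 3 the Pax8 call ended (0.75, limma adjusted p = 0.0525).

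In all, 3 of 9 members were called between WT oviduct and WT uterus, where 23.9% of all genes were called, and 4 of 9 (with Eya2) without the array labelled WT oviduct replicate 2, where 22.1% were called. In AKO oviduct against AKO uterus 0 members were called by limma, where 17.8% of all genes were called. There 1 member and 6274 of 19938 genes had an unadjusted p below 0.05. The same-numbered AKO oviduct and uterus arrays deviated together. With the replicate number as a block, and only the groups compared in the fit, 3 members were called in AKO. Pax8 (0.59, limma adjusted p = 0.00945) and Six4 (0.39, limma adjusted p = 0.0302) were higher in oviduct, and Pax2 (-0.29, limma adjusted p = 0.0436) was lower. The share of all genes called with the block is not given, so this count is not a result about the members. Emx2, which is needed for the whole urogenital tract, did not separate oviduct from uterus in WT (0.22, limma adjusted p = 0.352, and 0.38, limma adjusted p = 0.113, without that array).

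Oviduct itself gave 0 calls in AKO against WT by limma, with 0% of all genes called. An unadjusted p below 0.05 was reached by 0 members and by 609 of 19938 genes. Pax8 was 0.81, 0.73 and 0.56 in AKO oviduct and 0.76, 0.31 and 1.01 in WT oviduct, and all 9 members overlapped between the genotypes, where 8.65% of all genes did not. The array labelled WT oviduct replicate 2 was the lowest WT oviduct array for Eya2, Six4, Pax2, Pax8 and Emx2. Without it 0 members were called by limma in AKO against WT oviduct. Then 0 members and 456 of 19938 genes had an unadjusted p below 0.05. The differences without that array were -0.19 for Pax8 and -0.25 for Emx2 (limma adjusted p = 0.999 each).

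In the male tract Eya1 was the strongest segment marker of the 9. It had -1.66, -1.54 and -1.65 in AKO epididymis and -1.49, -1.60 and -1.58 in WT epididymis, which overlapped (-0.06, 95% interval -0.22 to 0.10). WT epididymis was lower than WT vas deferens by -3.15 (SE 0.28, limma adjusted p = 4.88e-07), a vas level 8.87 times that of epididymis. Among AKO tissues the difference was -1.38 (SE 0.28, limma adjusted p = 0.00291), so that Hoxa-null vas deferens stood between WT vas deferens and epididymis. The AKO effect was higher in epididymis than in vas deferens by 1.77 for Eya1 (SE 0.39, limma adjusted p = 0.0123). Without a background level, a lack of effect in epididymis cannot be told from a floor.

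Emx2 was the next member to separate the male segments. It had -0.49, -0.37 and -0.21 in AKO epididymis and 0.15, 0.26 and 0.19 in AKO vas deferens. It had -0.81, -0.73 and -0.83 in WT epididymis and -0.03, 0.12 and 0.41 in WT vas deferens. Epididymis was lower in WT (-0.96, SE 0.12, limma adjusted p = 1.17e-05) and in AKO (-0.56, SE 0.12, limma adjusted p = 0.00368). Within epididymis the AKO arrays were all above the WT arrays, and that difference did not pass (0.44, limma adjusted p = 0.0921).

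Pax8 changed its order between the segments. It was -0.12, 0.01 and 0.16 in AKO epididymis, above all AKO vas arrays, and -0.17, -0.19 and -0.32 in WT epididymis, below all WT vas arrays. The difference was 0.37 in AKO (SE 0.10, limma adjusted p = 0.0208) and -0.40 in WT (SE 0.10, limma adjusted p = 0.00629), and the AKO effect differed between the tissues by 0.77 (SE 0.14, limma adjusted p = 0.00421). Same-numbered epididymis and vas arrays deviated together, and with the replicate number as a block none of these passed: limma adjusted p = 0.0822 in AKO, 0.0862 in WT and 0.0587 for the difference. The AKO call was also lost without vas AKO replicate 1 (0.32, limma adjusted p = 0.0872), vas AKO replicate 3 (0.34, 0.0748) or epididymis AKO replicate 3 (0.30, 0.103).

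Eya2 was lower in AKO epididymis than in AKO vas deferens (-0.65, SE 0.14, limma adjusted p = 0.00409), and its WT difference of -0.36 did not pass (limma adjusted p = 0.0598) except without epididymis WT replicate 2 (-0.46, limma adjusted p = 0.0377). Its AKO effects did not differ between the tissues beyond their error (-0.29, limma adjusted p = 0.458). Eya4 had -0.38, -0.50 and -0.33 in AKO epididymis and 0.38, -0.08 and 0.00 in WT epididymis, without overlap and without passing (-0.50, limma adjusted p = 0.151). WT epididymis against WT vas deferens did not pass for Eya4 (-0.35, limma adjusted p = 0.113) and did with the replicate block (limma adjusted p = 0.0272) or without epididymis WT replicate 1 (-0.49, limma adjusted p = 0.0365).

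Between segments, 3 of 9 members were called in WT, where 28.1% of all genes were called, and 4 of 9 in AKO, where 15.5% were called. For the difference of the AKO effect between epididymis and vas deferens 2 of 9 were called, against 7.22% of all genes. For that between oviduct and uterus 0 were called by limma, against 0% of all genes. There 1 member and 847 of 19938 genes had an unadjusted p below 0.05. Without the array labelled WT oviduct replicate 2, 0 members were again called by limma, against 0.015% of all genes. Then 2 members and 889 of 19938 genes had an unadjusted p below 0.05. In AKO against WT epididymis 0 members were called by limma, where 0.782% of all genes were called. An unadjusted p below 0.05 was reached there by 3 members and 3193 of 19938 genes. The arrays of AKO and WT epididymis did not overlap for 3 of 9 members, Eya4, Pax8 and Emx2, and for 22.1% of all genes. All 10 smooth muscle markers were lower in WT epididymis than in WT vas deferens. Their mean in epididymis was -1.86 to -1.29 in AKO and -0.83 to -0.19 in WT. The part of smooth muscle in the Eya1 values was not tested. Eya1 was lowest in the epididymis groups, where no background level could be read.

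**Figure D5:**
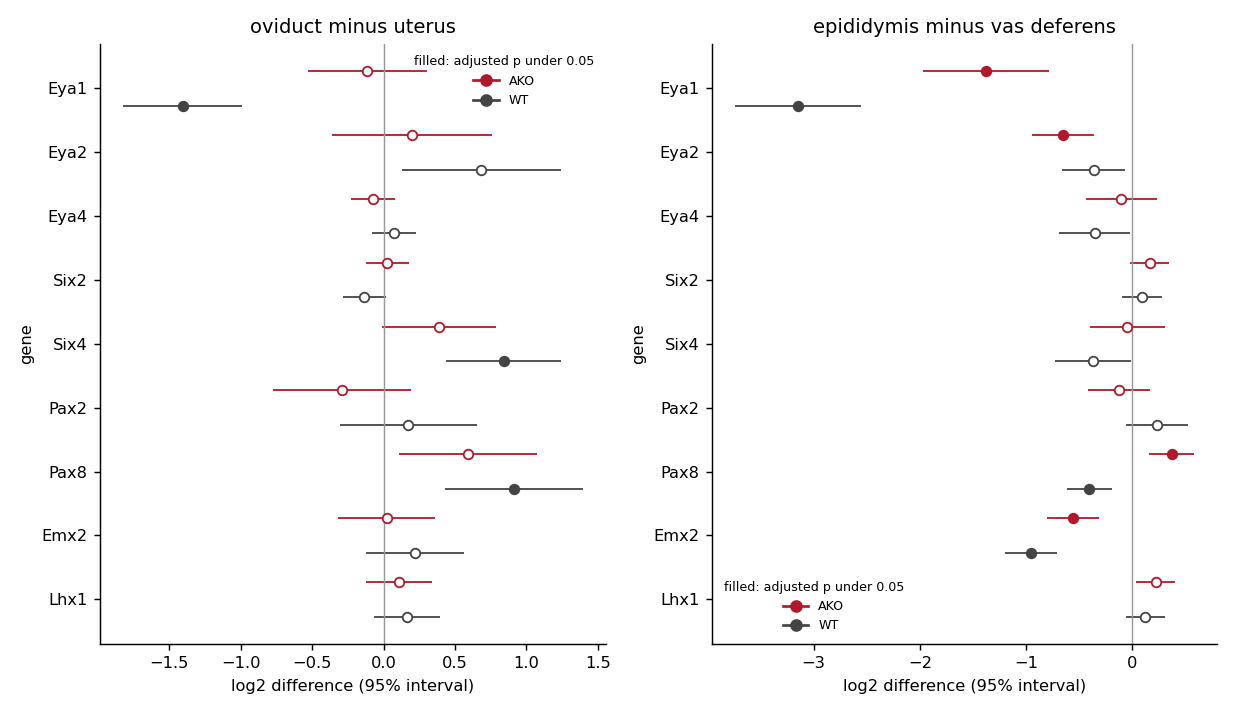
Log2 difference between the 2 tissues of a tract (horizontal axis) with its 95% interval for the 9 members, AKO and WT, with oviduct minus uterus on the left and epididymis minus vas deferens on the right. Filled points passed a limma adjusted p of 0.05. The Eya1 difference is smaller in AKO than in WT in both tracts, and Pax8 lies on opposite sides of 0 in epididymis minus vas deferens.

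Ordered by group mean, Eya1 in the male tract ran upward from AKO epididymis (-1.62 ± 0.06) and WT epididymis (-1.56 ± 0.06), which overlapped, to AKO vas deferens (-0.24 ± 0.25) and AKDH vas deferens (-0.12 ± 0.14), which overlapped. AHDK (1.39 ± 0.69), DKO (1.48 ± 0.43) and WT vas deferens (1.59 ± 0.42) overlapped at the top (SD, n = 3 each). No array crossed between these 3 tiers. In the female tract DKO uterus (0.67 ± 0.20) and WT uterus (1.32 ± 0.59) each stood alone, and the other 5 groups, with means from -0.16 to 0.02, overlapped their neighbours. Pax8 in the female tract had AKO and WT oviduct on top, at 0.70 ± 0.13 and 0.70 ± 0.35 (WT 0.89 over the 2 arrays left without replicate 2), and DKO uterus lowest at -0.56 ± 0.33, with overlap between all neighbours.

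The genes whose values followed a called member most closely over the 21 arrays of a sex are given as a description, since those arrays share tissues and genotypes. For Eya1 they were Clca2 (Pearson r = 0.888), the BMP antagonist Nog (0.871) and the Slit receptor gene Robo2 (0.869) in the female tract, and without the array labelled WT oviduct replicate 2 these were 0.888, 0.869 and 0.867. In the male tract they were Taf1a (0.983), the muscle sarcoglycan gene Sgca (0.979) and Pde2a (0.971). For Eya4 in the male tract the closest was the targeted gene Hoxa11 (0.964), then Hipk3 (0.946) and Trhde (0.943). Pax8 was followed by Gipc3 (0.918), Kcnj1 (0.895) and Veph1 (0.891), Eya2 by Mov10 (0.900), Ano10 (0.897) and Tspan15 (0.894), and Pax2 by Erbb3 (0.902), Rab11fip1 (0.892) and Pan3 (0.880), all in the male tract.

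The rest of the pathway was read from 4 lists. Of 7 measured genes of the rest of the Eya, sine oculis homeobox and Dach network, none was called in any uterus mutant or in vas AKO, DKO or AHDK, and 3 were called in vas AKDH, where 24.3% of all genes were called. There Dach1, a corepressor partner of sine oculis proteins, rose (0.70, SE 0.18, limma adjusted p = 0.0138), and Six5 (-0.55, limma adjusted p = 0.031) and Six6 (-0.29, limma adjusted p = 0.0352) fell. Of 7 other Pax genes, 3 fell in vas AKDH, against the same 24.3% of all genes, and none was called in another mutant: Pax6 (-0.24), Pax7 (-0.24) and Pax5 (-0.43). Of 14 Emx and LIM homeodomain relatives, 3 were called in vas AKDH (24.3% of all genes), 1 in DKO (5.87%) and 1 in AHDK (4.15%). The LIM cofactor Ldb1 rose in vas AKDH (0.19), DKO (0.35) and AHDK (0.25), and Emx1 (-0.23) and Lmx1b (-0.31) fell in vas AKDH.

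Of 36 other Wolffian and Müllerian duct genes, 3 rose and 2 fell in vas AKO, where 9.35% of all genes were called, and 4 rose and 7 fell in vas AKDH, where 24.3% were called. Both groups had higher Lgr4, an R-spondin receptor (0.89 in AKO and 0.84 in AKDH), and higher Wnt4 (0.67 and 0.56) and Wnt5a (0.79 and 1.20), both Wnt ligands. Cited1, a transcriptional coregulator of kidney progenitors, fell in both (-0.76 and -0.76), as did the forkhead gene Foxc2 (-0.28 and -0.41). The GDNF receptor gene Ret, a known target of Pax2 and Gata3 in the mouse Wolffian duct, rose in vas AKDH (1.29, SE 0.23, limma adjusted p = 0.00222) and in uterus AKDH (1.21, SE 0.29, limma adjusted p = 0.0303).

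In uterus AKDH Gdnf, which encodes the ligand of Ret, fell (-0.60, SE 0.13, limma adjusted p = 0.0206) and Fgfr2, a fibroblast growth factor receptor gene, rose (0.60, SE 0.13, limma adjusted p = 0.0233). The Notch modifier Lfng rose in uterus DKO (0.73, limma adjusted p = 0.0397) and AHDK (0.65, limma adjusted p = 0.0262). No gene of the 4 lists was called in AKO oviduct or AKO epididymis by limma, where 0% and 0.782% of all genes were called. The median difference of the duct list was -0.02 in vas AKO and -0.15 in vas AKDH, beside -0.02 and -0.05 over all genes.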

How the data were processed

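Members, gene lists and marker lists were chosen with earlier results of these data known. The deposited values are log2 values per probe set, as the authors made them. No label or header states their log base, summarisation or normalisation, and log2 was assumed. Per the file's values, each probe set has a median of 0 over the female and over the male arrays, so that sexes were not compared and no level above background could be read. The labels' protocols name RNeasy extraction and an Ambion kit for whole-transcript labelling. Of 28856 probe sets, 21789 had 1 gene symbol, 1621 several and 5446 none, and means per gene gave 19938 genes. Groups came from the titles.

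Tests used limma 3.58.1 in R 4.3.3 (lmFit, contrasts, eBayes), with Benjamini-Hochberg adjustment over all genes. Comparisons within a tissue used all arrays of that tissue, and those between tissues all 21 arrays of a sex. Intervals are 95% intervals of the fit. A direct exact permutation test of 3 arrays against 3 cannot go below a two-sided p of 0.1. The number of arrays limits the precision. Named genes are the 9 members, called genes of the chosen lists, and the 3 genes with the highest Pearson r to each member called in a mutant.

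Replicate numbers were taken as pairing the samples where all 3 same-numbered deviations from the group means correlated above 0.1. Of 42 pairs of groups this held for 4: AKO oviduct with AKO uterus, AKO with WT oviduct, WT epididymis with WT vas deferens, and AKO epididymis with AKO vas deferens. Alternatives covered probe sets taken singly, other normalisation, the spread used, array weights, a spread filter, the replicate block, leaving out arrays, and marker means as covariates. The smooth muscle covariate was added after seeing the data.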

Additional observations from a re-analysis of the deposited data

Results flagged for a closer look

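The effect of Hoxa9,10,11 loss on Eya1 differed between the male tissues. The AKO minus WT difference was -0.06 in epididymis and -1.83 in vas deferens, and epididymis minus vas deferens came to 1.77 (SE 0.39, 95% interval 0.93 to 2.61, limma adjusted p = 0.0123). Every AKO vas array was below every WT vas array, and AKO and WT epididymis overlapped. Eya1 was lowest in both epididymis groups (SD 0.06 each). No background level was given, so a lack of effect there cannot be told from a floor. With the smooth muscle covariate the vas difference was -0.87. With the adipocyte and skeletal muscle covariates it was -1.65 and not called (SE 0.59, limma adjusted p = 0.294).

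Pax8 also had different effects in these tissues. Its AKO minus WT difference was 0.24 in epididymis and -0.53 in vas deferens, a gap of 0.77 (SE 0.14, 95% interval 0.47 to 1.08, limma adjusted p = 0.00421). With the replicate number as a block the gap had a limma adjusted p of 0.0587. All 3 AKO arrays lay above the WT arrays in epididymis and below them in vas deferens.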

How the results depend on the processing

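Counts are of the 9 members called by limma, with the count as reported in brackets. The share of all genes called in each setting is not given here. A moved count is therefore not a result about the members. Of 216 member and comparison pairs, 29 were called as reported, 56 in at least 1 setting and 160 in none. In uterus AKO (0) the count was 1 with probe sets taken singly, quantile normalisation, arrays centred, the spread filter, array weights or the smooth muscle covariate. With only the groups compared Pax8 was lost in vas AKO (limma adjusted p = 0.0578) and in AKO epididymis against AKO vas deferens (0.0713), and the count was 0 in uterus AKDH (1) and AHDK (1), 1 in vas DKO (0), 3 in vas AKDH (5), 0 in vas AKDH against AHDK (3), 1 in WT oviduct against uterus (3) and 2 in AKO oviduct against uterus (0). With array weights it was 3 in uterus AHDK (1) and vas DKO (0), 1 in epididymis AKO (0), 1 in uterus and vas AHDK against DKO (0 each), 1 in AKO oviduct against uterus (0) and 5 in WT epididymis against vas deferens (3). Quantile normalisation gave 1 in vas DKO (0) and 1 for the AKO effect in oviduct minus uterus (0). It ended the calls of Eya1 in AKO epididymis against AKO vas deferens (-0.84, limma adjusted p = 0.132) and of Pax8 in vas AKDH against WT (-0.46, 0.0561), in vas AKDH against AHDK (-0.61, 0.0516) and in WT epididymis against WT vas deferens (-0.37, 0.0621).

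The small RNA covariate gave 0 in uterus AKDH (1) and AHDK (1). The epithelium covariate gave 2 in vas AKO (4), 1 in vas DKO (0), uterus AKDH against AHDK (0) and vas AHDK against DKO (0), and in uterus AHDK it called Pax2 (-0.68, limma adjusted p = 0.0363) in place of Eya1 (-1.21, 0.0581). In vas AKDH the epithelium covariate called Emx2 in place of Pax2. The adipocyte and skeletal muscle covariates gave 0 in vas AKO (4), AKDH (5) and AKDH against AHDK (3). The smooth muscle covariate gave 2 in vas AKO (4) and AKDH (5), those of AKDH being Pax8 and Emx2. It gave 1 in vas DKO (0), uterus DKO against AKO (0) and vas AKDH against AHDK (3). Without the 3 arrays that stood apart, vas AKDH against AHDK had 1 (3).

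The replicate block gave 3 in AKO oviduct against uterus (0) and 1 for the AKO effect in epididymis minus vas deferens (2). In WT oviduct against WT uterus, whose numbers do not pair, it gave 0 (3), with Eya1 at a limma adjusted p of 0.0677. It changed no call in oviduct AKO against WT.

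With 1 array left out, counts ran from 0 to 1 in uterus AKO, 1 to 2 in AKDH and 0 to 1 in AHDK, and from 2 to 4 in vas AKO, 0 to 2 in DKO and 4 to 5 in AKDH. They ran from 0 to 1 in vas AHDK against DKO, 1 to 3 in AKDH against AHDK, 2 to 4 in WT oviduct against uterus, 3 to 4 in WT epididymis against vas deferens and 3 to 5 in AKO. Signs were followed only for the 56 pairs called in at least 1 setting, and not for the other 160. Among those 56 the sign turned only for members not called as reported. These were Pax2 in uterus AHDK with the small RNA covariate (0.38) and Six4 in vas AKDH. Six4 turned with the epithelium covariate (-0.12), the smooth muscle covariate (-0.012) or without AKDH replicate 2 (-0.0125, against up to 0.32 without other single arrays). The cause of these changes was not tested. For single members of the same 56 pairs, 493 other settings kept side and sign, 44 brought a call in, 52 ended one and 3 turned the sign. With 3 arrays a group and no absolute signal, a member near background cannot be told from one that did not vary.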

Other observations

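Between the tissues of WT tracts, 11 of 36 other duct genes separated oviduct from uterus, where 23.9% of all genes were called, and 14 of 36 separated epididymis from vas deferens, where 28.1% were called. Without the array labelled WT oviduct replicate 2, which had a male profile of Xist and Eif2s3y, the first count was again 11 (22.1% of all genes), and Amhr2 was 0.61. In WT oviduct Ret (1.37), Lgr4 (1.14), Lfng (1.02) and Amhr2, the receptor gene of anti-Müllerian hormone (0.96), were higher than in WT uterus, and the transcription factor genes Etv5 (-1.30), Tcf21 (-1.17) and Sall1 (-0.75) were lower. In WT epididymis Gfra1, the GDNF co-receptor gene (1.83), and Wnt5a (1.14) were higher than in WT vas deferens, and Cited1 (-1.62), Osr1 (-1.61), Fgf10 (-1.59) and Gata3 (-1.24) were lower. Eya3 (-0.45) and Six5 (-0.81) were lower in WT epididymis too, and Dach1 was higher (0.65). For the AKO effect in epididymis minus that in vas deferens, 4 of 36 duct genes were called, where 7.22% of all genes were called. They were Wnt5a (-1.29), Wnt4 (-0.82), Lgr4 (-0.74) and Paxip1 (-0.47). All were called by limma over all genes.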
